A study of Mus musculus with 2 samples.

Results

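The 10 mature miRNAs described here are known from blood cells and blood vessels and were read in testes of adult mice, freed of their capsule. They were taken from the counts by name. For red cells these are mmu-miR-451a, mmu-miR-144-5p, mmu-miR-144-3p and mmu-miR-486a-5p, for white cells mmu-miR-142a-5p, mmu-miR-142a-3p, mmu-miR-150-5p and mmu-miR-223-3p, and for the endothelium mmu-miR-126a-3p and mmu-miR-126a-5p. They are 10 of 1905 mature miRNAs in the counts, 4 for red cells, 4 for white cells and 2 for the endothelium. All 10 were read in both libraries and passed the minimum of 10 reads for testing.

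The study asked whether long exposure to a low dose of endocrine-disrupting chemicals (EDCs) alters the miRNAs of the testis. Pregnant C57BL/6 mice (C57BL/6J in the study's methods) drank water with a mixture of EDCs or with vehicle alone from post-coital day 0.5, and their male offspring were kept on the same water until postnatal day 60. The mixture held 3 phthalates, the plasticisers DEHP, DBP and BBP, at 0.3 mg per kg and day each, and 2 alkylphenols, NP and OP, at 0.05 mg per kg and day each. Control mice received the vehicles DMSO and ethanol, at an estimated 0.25 and 0.06 g per kg and day, which the mixture was dissolved in as well. Testes were freed of their capsule, RNA was pooled in equal amounts within each group (n = 3) and each pool gave 1 library for small RNA sequencing, called the control library and the exposed library here. In the study's methods n counts the treated pregnant mice, so that the pooled units are their male offspring by mother. Pooling hides the spread between mice and between litters, and neither group has a replicate.

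In the testis, vessels, blood and most resident white cells lie between the seminiferous tubules, while the germ cells, which make up most of the organ, lie inside them. A miRNA that only blood or endothelial cells make is therefore diluted by the RNA of germ cells in such a sample. miR-451a and miR-144 come from 1 transcript that erythroid transcription factors switch on, and miR-451a is unusual in being cut by Argonaute 2 instead of Dicer. miR-486a lies in Ank1, the gene of the red cell membrane protein ankyrin 1, and is also made in striated muscle. miR-142a is made in nearly all blood cell lineages, miR-150 in mature lymphocytes, where it represses Myb, and miR-223 in neutrophils and other myeloid cells. miR-126a lies in Egfl7 and is the best known miRNA of the endothelium, where it eases signalling by vascular growth factors and keeps vessels intact. A miRNA finds its targets mainly through its seed, the bases 2 to 8 from its 5′ end.

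The mature sequences are shown since the seed sets which mRNAs each of these miRNAs can bind. RefSeq sequences (GRCm38.p6) were matched for 7 of the 10, printed with the seed in capitals. miR-150-5p, miR-486a-5p and miR-126a-5p are named only.
miR-451a: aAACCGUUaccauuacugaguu
miR-144-5p: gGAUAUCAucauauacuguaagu
miR-144-3p: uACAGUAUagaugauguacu
miR-142a-5p: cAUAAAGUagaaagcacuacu
miR-142a-3p: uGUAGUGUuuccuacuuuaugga
miR-223-3p: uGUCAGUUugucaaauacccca
miR-126a-3p: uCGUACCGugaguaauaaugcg

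The 7 sequences carry 7 different seeds, and no other mature miRNA in the RefSeq table has any of them. Within that table these 7 thus form no seed family. The table lacks the 3 other members, whose seeds were not compared, and may lack further miRNAs. Over the shorter seed of bases 2 to 7, miR-144-3p shares its letters with miR-101a-3p, which had 1225 control and 1141 exposed reads. miR-223-3p shares them with miR-344f-5p, which had 0 reads in both. The lengths of these 7 run from 20 bases in miR-144-3p to 23 in miR-144-5p and miR-142a-3p.

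The hairpins of miR-451a, miR-144 and miR-142a are shown because the place of the mature sequence differs between them. Capitals mark the mature miRNAs.
Mir451a: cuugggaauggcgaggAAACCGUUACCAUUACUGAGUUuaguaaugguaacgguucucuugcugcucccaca
Mir144: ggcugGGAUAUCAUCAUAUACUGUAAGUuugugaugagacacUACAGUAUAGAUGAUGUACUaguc
Mir142: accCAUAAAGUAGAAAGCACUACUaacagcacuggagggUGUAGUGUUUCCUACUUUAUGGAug

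In the hairpin of 72 bases, miR-451a takes positions 17 to 38 and runs past its middle at 36.5. In the hairpins of miR-144 and miR-142a each arm stays on its own side of the middle. On GRCm38 (mm10) Mir451a lies at chr11:78073170-78073241 and Mir144 at chr11:78073005-78073070, both on the plus strand and 99 bases apart. Mir142 lies at chr11:87756864-87756927 in an intron of the non-coding gene Mir142hg, and Mir150 at chr7:45121757-45121821 with no other annotated gene over it. Mir223 lies at chrX:96242817-96242926 in an exon of the non-coding gene F630028O10Rik, and Mir486 at chr8:23142555-23142682 in an intron of Ank1. Mir126a lies at chr2:26591357-26591429 within Egfl7, inside an exon of an annotated transcript. Host genes are from GENCODE M21.

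The counts are whole reads per mature miRNA and sum to 550261 in the control library and 501539 in the exposed library. Levels are given as reads and as RPM (reads per 1000000 of these totals), with exact Poisson intervals. Libraries were scaled with median-of-ratios size factors before they were compared. Ratios are the exposed over the control library on the log2 scale, followed by the exact Clopper-Pearson interval at 95%. The 2-sided exact binomial test of the reads was adjusted by Benjamini-Hochberg over all 484 miRNAs with at least 10 reads. A call needed an adjusted p under 0.05 and a ratio 0.5 or more away from 0. What is tested is whether the libraries differ, not whether the conditions do, and both tests and intervals cover counting error only, for reads that can be PCR copies of each other. In each library 6 miRNAs known from germ cells together took 20.4% of the reads, with the most for miR-34c-5p (45779 and 38088 reads, log2 ratio −0.08) and miR-881-3p (27409 and 23470, −0.04), and miR-34b-5p (11198 and 14881, 0.60) called higher. Of the gonad's somatic cells, miR-202-5p had 2069 and 2106 reads (0.21) and miR-202-3p 338 and 297 (0.00). miR-122-5p, which defines liver, had 0 and 1 reads. For a count of 0, the limit used is 3 reads, or 5.45 RPM in the control and 5.98 RPM in the exposed library.

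The 10 blood and vessel miRNAs together had 4129 control and 3299 exposed reads, or 7504 and 6578 RPM. Most of this was miR-126a-3p alone, with 84.3% and 81.9% of the summed reads. Red cell members took 0.0313% and 0.0347% of all reads, white cell members 0.0373% and 0.0353%, and endothelial members 0.682% and 0.588%. The endothelial sum was thus 21.8 times the red cell sum in the control library and 16.9 times in the exposed library. Against the white cell sum it was 18.3 and 16.7 times.

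**Figure D1:**
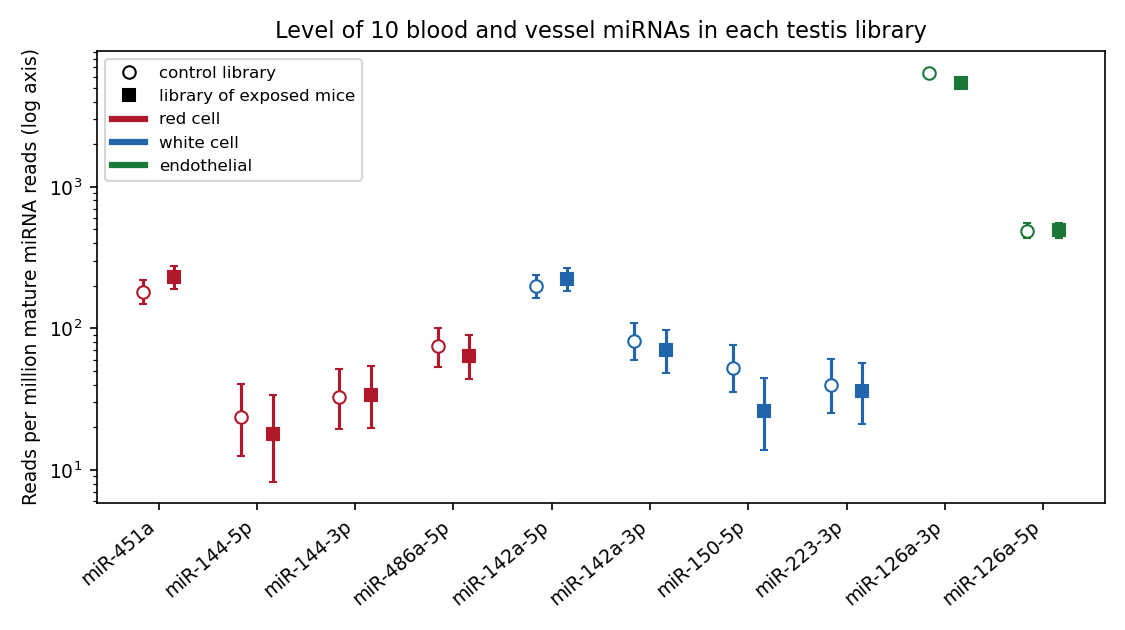
RPM (log axis) of the 10 miRNAs in the control library (open circles) and in the exposed library (filled squares), with exact 95% Poisson intervals, coloured by cell class. miR-126a-3p stands far above the others at 6328 and 5385 RPM, and miR-144-5p lies lowest, at 23.6 and 17.9.

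The order of the levels by reads was nearly the same in both libraries. Ligation and amplification can differ between miRNAs of different sequence, and their part in the order and in the ratios between classes was not tested. miR-126a-3p came first and miR-126a-5p next, then miR-142a-5p and miR-451a, then miR-142a-3p and miR-486a-5p, and last miR-150-5p, miR-223-3p and the arms of miR-144. Of the 9 steps between neighbours in this order, 3 were larger than the counting error in each library and 6 were not. The steps apart were those from miR-126a-3p to miR-126a-5p, from there to the pair of miR-142a-5p and miR-451a, and from that pair to miR-142a-3p. miR-451a and miR-142a-5p changed places between the libraries, and miR-150-5p went from the seventh place to the ninth, in both cases among neighbours with overlapping intervals.

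Among the red cell miRNAs, miR-451a was the most abundant and had the highest log2 ratio, which did not pass the test. It had 100 control and 116 exposed reads, or 182 RPM (148 to 221) and 231 (191 to 277). The log2 ratio was 0.40 (0.0023 to 0.80), a 1.32-fold difference, with an unadjusted p of 0.0478 and an adjusted p of 0.175 from the exact binomial test. The intervals of the levels overlap. Scaling by total reads moves all ratios by −0.05, further than the lower bound of 0.0023 lies from 0, so that the interval of the ratio then includes 0. The RNA is from tissue of many cell types, the testis without its capsule. For this and each further value, fewer or more cells of a type therefore cannot be told apart from less or more of the miRNA in each cell.

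miR-144-5p and miR-144-3p, made from the same transcript as miR-451a, had few reads. miR-144-5p had 13 control and 9 exposed reads (log2 ratio −0.34, −1.75 to 0.99). miR-144-3p had 18 and 17 (0.10, −0.94 to 1.14). Both intervals include the ratio of miR-451a as well as 0, so that at this depth the members of the cluster were not shown to differ from each other. miR-451a had more reads than both miR-144 arms together in each library.

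miR-486a-5p had 41 control and 32 exposed reads, or 74.5 and 63.8 RPM (log2 ratio −0.17, −0.89 to 0.53, exact binomial test, adjusted p = 0.869). The miRNA of the hairpin on the opposite strand, miR-486b-5p, had 36 and 35 reads (0.15, −0.57 to 0.86). These copies are near-identical and lie over each other on opposite strands, and a read that matches both may have been counted at each, so that the counts of miR-486a-5p and miR-486b-5p are uncertain and cannot be taken as separate measurements. Of the miRNAs of striated muscle, which also makes miR-486a, miR-1a-3p had 712 and 842 reads (0.43, under the size minimum) and miR-133a-3p had 103 and 56 (−0.69, called lower), and their part in the counts of miR-486a-5p was not tested. The other overlapping hairpin of this class, miR-451b on the strand opposite miR-451a, had 0 reads in both libraries.

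Of the white cell miRNAs, miR-142a-5p was the most abundant, and miR-150-5p had the largest ratio in size of all 10. miR-142a-5p had 109 control and 111 exposed reads, or 198 and 221 RPM (log2 ratio 0.21, −0.18 to 0.61, exact binomial test, adjusted p = 0.549). miR-142a-3p had 45 and 35 reads, or 81.8 and 69.8 RPM (−0.18, −0.86 to 0.49). The arms lay on different sides of 0, each with an interval that includes 0 and the ratio of the other. The hairpin on the opposite strand, miR-142b, had 0 reads in both libraries.

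miR-150-5p, the lymphocyte miRNA, had 29 reads in the control library (52.7 RPM, 35.3 to 75.7) and 13 in the exposed library (25.9, 13.8 to 44.3). Its log2 ratio was −0.97 (−2.04 to 0.02), with an unadjusted p of 0.0443 and an adjusted p of 0.169 from the exact binomial test, so that it was not called. The test and the Clopper-Pearson interval treat the 2 tails differently, so that the interval can include 0 at an unadjusted p under 0.05. Of all 484 miRNAs tested, 8.68% lay at least as far from 0. miR-223-3p, the myeloid miRNA, had 22 and 18 reads, or 20.6 and 19.2 normalised reads (−0.10, −1.09 to 0.86). The intervals of the lymphocyte and the myeloid miRNA overlap.

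miR-126a-3p was the only one of the 10 with a difference past the adjusted p, and that difference was small. It had 3482 control and 2701 exposed reads, or 6328 RPM (6119 to 6542) and 5385 (5184 to 5592), intervals that do not overlap. It ranked 38 and 40 among all mature miRNAs. The log2 ratio was −0.18 (−0.25 to −0.11), a fold of 0.883, with an adjusted p of 1.5e-05 from the exact binomial test, and as it lies under the size minimum miR-126a-3p was not called lower. Over the other scalings the ratio ran from −0.23 to −0.15 and the adjusted p from 4.11e-09 to 0.00039. edgeR's exact test, which allows for spread beyond counting error, gave an unadjusted p of 0.437. Its dispersion was estimated from both libraries as a single group, so that differences between the libraries themselves count as spread and raise this p. The other arm, miR-126a-5p, had 270 and 247 reads, or 491 and 492 RPM (0.06, −0.20 to 0.31, adjusted p = 0.877). The intervals of its levels, 434 to 553 and 433 to 558, nearly coincide. The hairpin on the opposite strand, miR-126b, had 0 reads for either arm in both libraries.

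**Figure D2:**
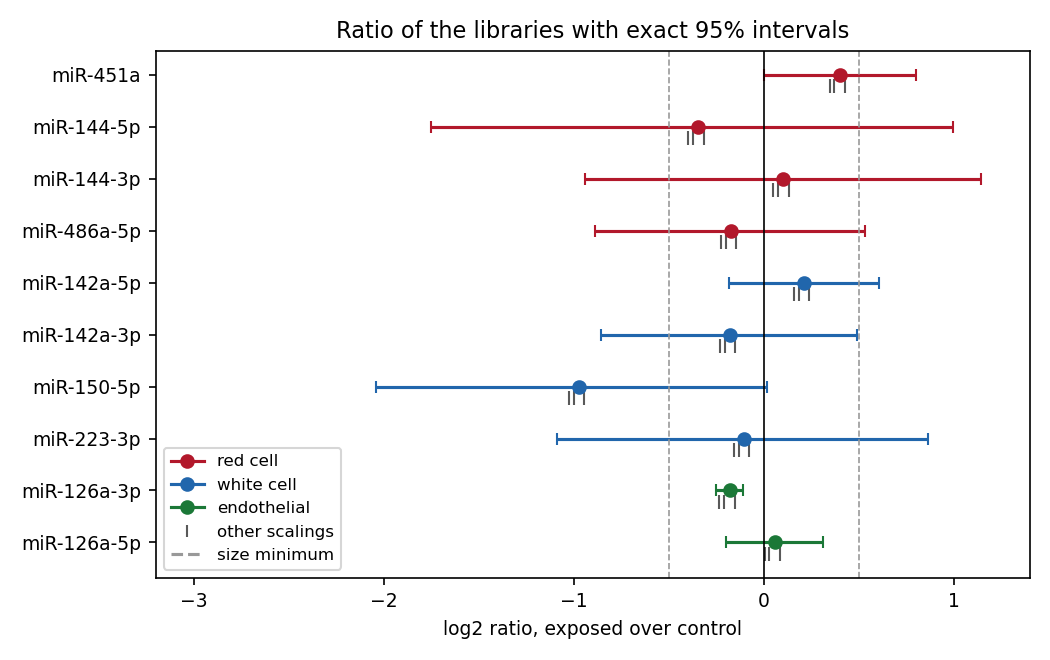
The log2 ratio of the exposed over the control library (x axis) for each of the 10 miRNAs, with its exact 95% interval, the ratios under the other scalings as small ticks and the size minimum of 0.5 as dashed lines. At the main scaling only the intervals of miR-126a-3p (−0.25 to −0.11) and miR-451a (0.0023 to 0.80) lie to one side of 0. With scaling by total reads the interval of miR-451a includes 0.

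By the exact binomial test 0 of the 10 were called, against 2.89% of the 484 miRNAs tested (0.620% higher and 2.27% lower). At any size, 1 of the 10 was lower at an adjusted p under 0.05 and none higher, against 9.30% lower and 8.26% higher among all tested. At an unadjusted p under 0.05 there were 3 of 10, namely miR-126a-3p, miR-451a and miR-150-5p, against 27.9% of all tested. edgeR's exact test, its dispersion taken from the libraries treated as a single group, gave 0 of the 10 an unadjusted p of 0.05 or less, with the lowest at 0.0924 for miR-150-5p. The ratios of 4 members lay above 0 and those of 6 below. A ratio at least 0.5 away from 0 was seen in 1 member, against 21.7% of all tested. The members' median was −0.14, beside −0.04 over all 484 tested, of which 220 lay above 0 and 263 below.

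**Figure D3:**
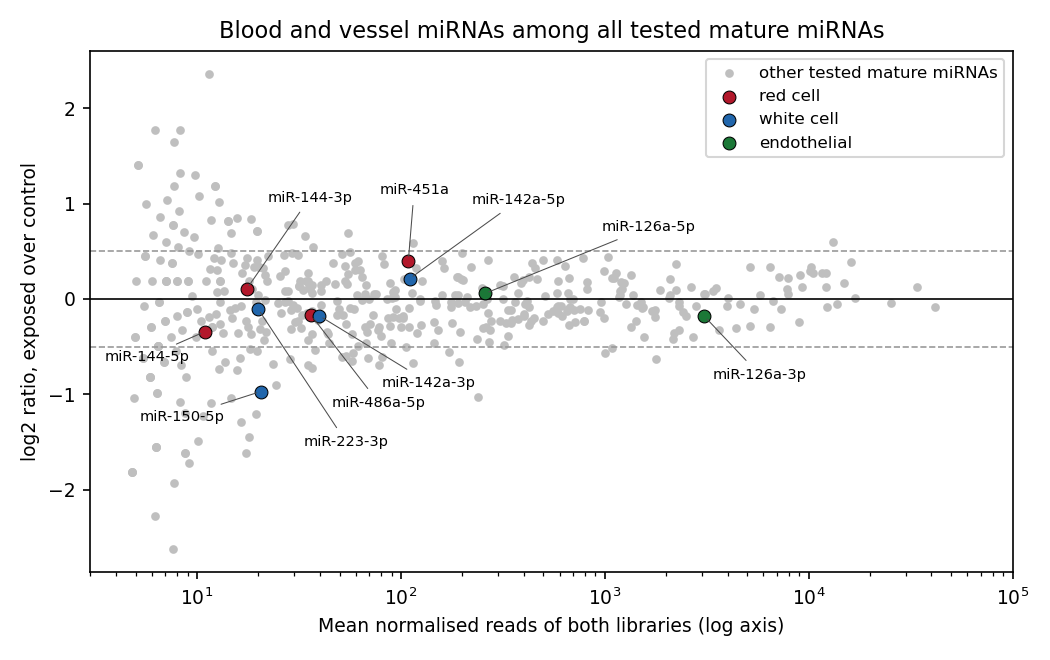
The log2 ratio of the exposed over the control library against the mean normalised reads of both libraries (log axis) for all 484 tested miRNAs, with the 10 blood and vessel miRNAs coloured by class and named. The miRNAs with few reads scatter widely, and miR-150-5p, at −0.97, is the only coloured point outside the dashed size minimum of 0.5.

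The depth set what could have been called. miR-126a-3p and miR-126a-5p had enough reads for any ratio past the size minimum to pass the adjusted p as it fell here. miR-451a, at 100 reads in the control library, would have needed a ratio of 0.52 or more, or at most 56 reads in the exposed library. miR-150-5p, at 13 reads, would have needed 9 or fewer, a log2 ratio of −1.50. miR-144-5p would have needed 28 reads or more, a ratio of 1.29, or no more than 1 read. For the 4 members with fewer than 50 reads in the libraries together, miR-144-5p, miR-144-3p, miR-150-5p and miR-223-3p, only large changes were detectable at this depth. The limit also held for miR-486a-5p, which needed a log2 ratio of 0.78 upward or −1.08 downward, and for miR-142a-3p, which needed 0.74 or −1.06.

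The share of a hairpin's reads that comes from each arm needs no scaling between libraries and was tested with Fisher's exact test over all 243 hairpins with both arms and at least 20 reads. Of these, 4.94% were called at an adjusted p under 0.05. Of the 6 hairpins of the members 0 were called, and the lowest adjusted p was 0.475, for miR-126a with an unadjusted p of 0.0723. Its 5p arm gave 7.20% of the reads in the control library (Clopper-Pearson interval 6.39% to 8.07%) and 8.38% in the exposed library (7.40% to 9.44%). The dominant arm was the same in both libraries for each of the 6.

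The arms of these hairpins differed widely in use. miR-126a and miR-223 gave mostly 3p reads, at 92.8% and 91.6% for miR-126a and at 75.9% and 85.7% for miR-223, whose 5p arm had 7 and 3 reads. miR-142a gave mostly 5p reads, with 70.8% in the control and 76.0% in the exposed library. miR-150 gave 96.7% and 86.7% 5p reads, with 1 and 2 reads of the other arm, and miR-486a had 0 and 1 reads of its 3p arm. miR-144 was the most even, with 41.9% and 34.6% 5p reads, and both intervals include 50%.

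**Figure D4:**
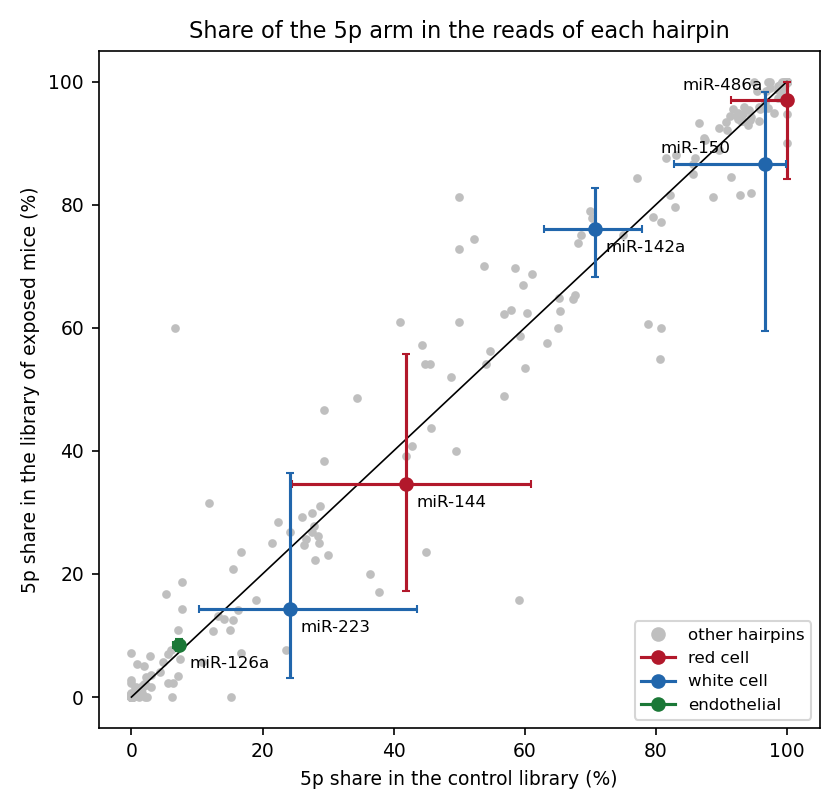
The share of the 5p arm in the reads of each of 243 hairpins (%), in the control library (x axis) and in the exposed library (y axis), with exact 95% intervals for the 6 hairpins of the members. For each of the 6 the intervals of the libraries overlap, from miR-126a at 7.20% and 8.38% to miR-486a at 100% and 97.0%.

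Summed by class, the reads of red cell miRNAs numbered 172 and 174 in the control and exposed library (log2 ratio 0.20, −0.11 to 0.52). Those of white cell miRNAs were 205 and 177 (−0.03, −0.32 to 0.27, and 0.00 with TMM scaling), and those of the endothelium 3752 and 2948 (−0.16, −0.23 to −0.09). Each sum was led by 1 miRNA. Without miR-451a the red cell sum was at −0.13 (−0.65 to 0.39), without miR-142a-5p the white cell sum was at −0.35 (−0.83 to 0.11), and without miR-126a-3p the endothelial value, then miR-126a-5p alone, was at 0.06. The signs of the ratios were mixed within each class, with 2 of 4 red cell, 1 of 4 white cell and 1 of 2 endothelial miRNAs above 0. Apart from miR-126a-3p and miR-451a, each member's interval includes 0, so that these signs cannot decide whether a class had a common direction.

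Ratios between members of the same library are free of scaling. Of the 45 pairs of members, 41 had an interval that includes no change between the libraries. The 4 others all held miR-150-5p or miR-451a, and these intervals are not adjusted for the number of pairs. The pairs share members, and the share over pairs of all tested miRNAs was not computed. Both miR-150-5p and miR-451a had an unadjusted p under 0.05 in the exact binomial test, as had 27.9% of all tested, so that these pairs are no separate result. The log2 change of the ratio was 0.58 (0.17 to 0.99) for miR-451a over miR-126a-3p and 1.37 (0.29 to 2.51) for miR-451a over miR-150-5p. miR-142a-5p over miR-150-5p was at 1.18 (0.10 to 2.33), and miR-150-5p over miR-126a-5p at −1.03 with an upper bound of 0.00. Over the classes, the log2 change of endothelial to red cell reads was −0.36 (−0.69 to −0.04), exposed over control library. miR-451a and miR-126a-3p led these sums and form 1 of the 4 pairs above, so that this change is no separate result. Without miR-451a the log2 ratio of the red cell sum was −0.13 (−0.65 to 0.39), beside −0.16 for the endothelial sum. The interval of the class change covers counting error only. Endothelial to white cell reads were at −0.14 (−0.44 to 0.17), and red cell to white cell reads at 0.23 (−0.21 to 0.66).

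Other miRNAs known from blood cells were read beside the members. By the exact binomial test 0 of 15 were called, against 2.89% of all tested. At any size, against 8.26% higher and 9.30% lower among all tested, 1 was higher, miR-146a-5p, which damps inflammatory signalling (659 and 676 reads, log2 ratio 0.22), and 4 were lower: miR-25-3p (3276 and 2183, −0.40), miR-92a-3p (5936 and 4854, −0.10), miR-16-5p (2717 and 2165, −0.14) and miR-181a-5p (1999 and 1542, −0.19). These 5 are made in many cell types, and each had more reads than any red or white cell member. The 15 ratios ran from −0.50 to 0.54 with a median of −0.10, and 6 lay above 0 and 9 below. Apart from miR-92a-3p and miR-25-3p, the miRNAs named here were picked for naming after their values had been seen.

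Of 10 other miRNAs known from vessels 0 were called by the exact binomial test, against 2.89% of all tested. At any size 1 was higher and 1 lower, against 8.26% and 9.30% of all tested. miR-10a-5p, which restrains inflammatory activation of endothelium, had 1242 control and 1226 exposed reads (log2 ratio 0.17), and miR-23a-3p, picked after its values had been seen, had 326 and 228 (−0.33). miR-24-3p, the most abundant of the list, had 1904 and 1530 (−0.13, exact binomial test, adjusted p = 0.0519). The median of the 10 was 0.03, with 5 above 0 and 5 below, so that the signs of the ratios were evenly split. Smooth muscle miRNAs, which mark the vessel wall and the cells around the tubules, took 6.50% and 6.83% of the reads, and of these miR-143-3p had 34442 and 33084 reads (0.13) and miR-145a-5p 740 and 652 (0.00). Whether the makeup of the pooled tissue, its blood content or its smooth muscle had a part in the ratio of miR-126a-3p was not tested.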

How the data were processed

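Mature miRNAs were measured by small RNA sequencing of 1 library per group, with single reads of 65 nucleotides (MiSeq). The authors used FastQC and cutadapt, removed reads shorter than 12 nucleotides, aligned to mm10 with bowtie with up to 3 mismatches while keeping all best alignments, and counted with HTSeq on miRBase v21. For their own comparison they normalised with DESeq. Versions were not given in the sources used here. The deposited counts are whole reads per mature miRNA, not normalised. Ambiguous reads (0.528% and 0.515%) name no miRNA and were left out.

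Size factors were 1.07 (control) and 0.937 (exposed). Of 1905 miRNAs, 484 had at least 10 reads in total and were tested with the 2-sided exact binomial test. Alternatives were other scalings, a pseudocount, other minimums and edgeR's exact test. With 1 library per group no replicate model could be fitted. Arms were paired by name. All 10 members were named, with the other arms and overlapping hairpins, and from each further list the miRNAs called and the 2 with the most reads. Members and lists were chosen with earlier results of these data known. On simulated counts with counting error only, 47.5%, 68.6% and 91.1% of miRNAs changed by 1.5, 2 and 4 times were called over 20 draws of 484 miRNAs, and 0 when nothing changed. The test assumes this same error, so that the 0 says nothing of spread between mice. The draws used the levels of all 484, and recovery at the members' depth (median 43 control and 33.5 exposed reads) was not measured. In each draw many miRNAs were changed at once and the true size factors were given to the test. Both can raise the recovery above that in the data. Sequences are from RefSeq. Python 3.11.15, scipy 1.17.1, R 4.3.3 and edgeR 4.0.16 were used.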

Additional observations from a re-analysis of the deposited data

How the results depend on the processing

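Scaling by total reads, by TMM or by a total that leaves out the top 10 moved all log2 ratios by −0.05 to 0.03. With these and a pseudocount of 0.5, all 40 recomputed ratios of members kept their direction and none was called. Each scaling moves all ratios alike, and the member nearest 0, miR-126a-5p, lay at 0.058, so that no scaling could have changed a direction. The pseudocount entered the ratios only and left the p-values of the test as they were, so that it was no separate check of the calls. miR-126a-3p ranged from −0.23 to −0.15, miR-451a from 0.35 to 0.43 and miR-150-5p from −1.02 to −0.94. Without a size minimum 1 member was lower. Among all miRNAs, 40 were then higher and 45 lower, against 3 and 11 with the minimum of 0.5 used here, 1 and 4 with a minimum of 1.0, and 17 lower with scaling by total reads. With a dispersion estimated over both libraries, edgeR's exact test at an adjusted p called 0 higher and 0 lower (2 and 16 unadjusted). Without their leading member the class sums were at −0.13 (red cell, 0.20 with it), −0.35 (white cell, −0.03 with it) and 0.058 (endothelial, −0.16 with it), so that the red cell and endothelial sums changed sign. The white cell sum also did so under TMM, at 0.0021. Fewer than 50 reads in 4 members limit what could be seen. No paired analysis was possible because each group has 1 library, and for the same reason no replicate could be left out.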

Other observations

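Among markers of other organs read in the same libraries, miR-375-3p, known from pancreatic islets and other secretory cells, had 1638 control and 1225 exposed reads (log2 ratio −0.23, −0.34 to −0.12, by the exact binomial test an adjusted p of 0.000193, under the size minimum). miR-9-5p and miR-124-3p, known from the nervous system, had 453 and 351 reads (−0.18, −0.39 to 0.02) and 44 and 30 reads (−0.37, −1.09 to 0.34). Each of miR-375-3p and miR-9-5p had more reads than any red or white cell member. No cause was tested.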
